A study of Mus musculus with 6 samples.

Results

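The genes examined here encode 2 Na+/Ca2+ exchangers and 3 plasma membrane Ca2+ pumps that carry Ca2+ out of the cell across its surface membrane. They are *Slc8a1* (NCX1), *Slc8a2* (NCX2), *Atp2b1* (PMCA1), *Atp2b2* (PMCA2) and *Atp2b4* (PMCA4). They were chosen by name, and all 5 were found among the 16018 genes of an RNAseq table. The table holds 3 heart libraries labelled as female KO b/c and 3 labelled as female WT. The KO b/c genotype lacks the variants NBCe1-B and NBCe1-C of the Na+/HCO3- cotransporter encoded by *Slc4a4*, and the targeted gene went against the label in 1 of the 3, as given below. All 6 mice were between 4 and 5 weeks of age, were bred from heterozygous parents on the C57BL/6J background and received no treatment that the labels name. KO b/c mice keep the kidney variant NBCe1-A, and their variants B and C are missing from the whole body, so the loss is not limited to the heart. KO b/c mice also die early, so the animals sampled are survivors. RNA came from heart tissue and not from isolated cardiomyocytes, and fewer cells of a type and less RNA per cell cannot be told apart in it.

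During each heartbeat, Ca2+ enters a cardiomyocyte and is released from the sarcoplasmic reticulum. It is then pumped back into the reticulum by SERCA2 and carried out of the cell. NCX1 is the main route out, and it uses the Na+ gradient to do so: Na+ enters as Ca2+ leaves, so a rise of Na+ in the cell slows the exchange and can turn it around. The plasma membrane Ca2+ pumps are driven by ATP and stimulated by calmodulin. They move less Ca2+ than NCX1 in cardiomyocytes, and PMCA1 and PMCA4 are found in many tissues, whereas NCX2 and PMCA2 are best known from neurons. NBCe1-B brings fewer Na+ ions into the cell per unit of base than the other acid-neutralizing transporters do. The study raised the question of whether its loss changes the Na+ load against which NCX1 works, and the comparison of genotypes below addresses the mRNA of the extrusion genes.

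The targeted gene divides the libraries otherwise than the labels do. *Slc4a4* had 264, 944.8 and 268.7 normalized counts in the 3 libraries labelled KO b/c, in order of replicate number. In the 3 WT libraries it had 675.1, 822.2 and 788.8. Replicate 2 of the former was thus at the WT level. The study describes NBCe1-B as the sole variant of the heart. Counts summed over the gene do not separate its variants, and whether this library's label is right was not settled. KO b/c below means the libraries as labelled. The genotype difference of each extrusion gene is given with all libraries as labelled, and again without that library. A normalized count is a read count scaled by a factor for its library and is not scaled to gene length. The reads counted on genes ranged from 41364857 to 49100802 per library, so that counting error was 0.984% to 1.46% of the count for *Slc8a1* and 17.7% to 33.3% for *Atp2b2*.

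*Slc8a1* (ENSMUSG00000054640) lies on the minus strand of chromosome 17 from 81373105 to 81738377, in GRCm38 as annotated by GENCODE M21. *Slc8a2* (ENSMUSG00000030376) lies on the plus strand of chromosome 7 from 16129826 to 16161063. *Atp2b1* (ENSMUSG00000019943) lies on the plus strand of chromosome 10 from 98914406 to 99026143. *Atp2b2* (ENSMUSG00000030302) lies on the minus strand of chromosome 6 from 113743831 to 114042613, and *Atp2b4* (ENSMUSG00000026463) on the minus strand of chromosome 1 from 133699457 to 133801041. Reads were summed over all exons, so that alternative first exons, splice variants and UTRs were not told apart. An antisense RNA shares 296 exon bases with *Slc8a1*, or 1.57% of its exon bases. The strand setting of the count is not given in the sources used here, so reads from that stretch could belong to either. The other 4 genes share at most 6 exon bases with another annotated gene.

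The windows before annotated starts of the 3 abundant genes differ in base composition. The 250 bases before a RefSeq start of each (GRCm38.p6) are printed 5′ to 3′ on the gene's strand because these 3 genes were higher in each library labelled KO b/c than in each WT library, as described below. Capitals mark the letters GGGCGG, a GC box, and GATA, the core bound by GATA factors, on either strand, where they read CCGCCC and TATC.
Slc8a1, chr17:81738388-81738637, minus strand: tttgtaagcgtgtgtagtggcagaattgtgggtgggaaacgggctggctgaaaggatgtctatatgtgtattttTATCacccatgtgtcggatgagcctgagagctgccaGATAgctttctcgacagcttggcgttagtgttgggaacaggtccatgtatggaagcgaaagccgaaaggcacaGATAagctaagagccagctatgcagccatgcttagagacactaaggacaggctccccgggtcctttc
Atp2b1, chr10:98914392-98914641, plus strand: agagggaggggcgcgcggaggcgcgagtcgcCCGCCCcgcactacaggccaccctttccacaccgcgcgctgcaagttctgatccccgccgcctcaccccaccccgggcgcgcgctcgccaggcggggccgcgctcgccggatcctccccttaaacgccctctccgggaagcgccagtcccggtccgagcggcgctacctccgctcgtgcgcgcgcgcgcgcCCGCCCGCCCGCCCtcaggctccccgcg
Atp2b4, chr1:133753748-133753997, minus strand: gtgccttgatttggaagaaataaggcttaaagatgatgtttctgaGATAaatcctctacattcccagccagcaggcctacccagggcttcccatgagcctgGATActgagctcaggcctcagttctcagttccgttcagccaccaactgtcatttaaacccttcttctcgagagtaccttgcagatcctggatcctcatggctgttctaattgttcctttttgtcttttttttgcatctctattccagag
The *Slc8a1* window held 3 GATA matches and 0 GC boxes, with 50.4% G and C and 8 CpG dinucleotides. The *Atp2b1* window held 4 GC boxes, of which 3 overlap in 1 run, and 0 GATA matches, with 78.4% G and C and 43 CpG dinucleotides. Most of this window lies inside the gene as annotated by GENCODE M21, which starts at 98914406. A second *Atp2b1* start, not printed, had 80.8% G and C. The *Atp2b4* window lies inside the annotated gene, before a start downstream of its outermost one, and held 2 GATA matches and 0 GC boxes, with 45.6% G and C and 2 CpG dinucleotides. Among all 32851 RefSeq windows of this length, 53.6% held GATA and 32.7% a GC box, the median G and C content was 52.4% and the median number of CpG dinucleotides was 6. The windows of these genes were thus CpG-rich for the pump *Atp2b1*, whose product is found in nearly all cells, and near or below the median for the other genes printed. A match is a description of the letters in this window and not a bound site. Whether a printed window acts as a promoter in the heart was not tested.

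*Slc8a1*, the main Ca2+ exit of the cardiomyocyte, was the most abundant of the 5 genes in normalized counts and showed the largest genotype difference. It had 10258, 7248 and 6793 normalized counts in the libraries labelled KO b/c, and 4800, 5538 and 5055 in WT hearts, here and below in order of replicate number. Each library labelled KO b/c was above each WT library, and replicate 1 was 1.46 times the mean of the other 2 in its group. The spread was wider in KO b/c, with a coefficient of variation of 23.2%, than in WT hearts, where it was 7.31%; that difference in spread was not tested. The log2 fold change was 0.64 with a 95% interval of 0.31 to 0.96, which corresponds to a fold of 1.24 to 1.95. It missed the threshold once adjusted for all genes (adjusted p = 0.0815, limma with Benjamini-Hochberg adjustment), and the exact two-sided permutation test gave p = 0.1, the smallest that 3 mice against 3 allow. DESeq2, on read counts recovered from the table, did call it, with an adjusted p of 0.000302, and edgeR did not, with 0.0805. Without the library labelled KO b/c replicate 2 the log2 fold change was 0.70, and without replicate 1 it was 0.45.

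*Slc8a2*, the exchanger known from brain, was scarce in the heart, with a mean above that of 20.3% of the genes tested. Its normalized counts were 69.5, 60.0 and 56.8 in the libraries labelled KO b/c and 62.5, 57.2 and 52.6 in WT hearts. The groups overlapped. The log2 fold change of 0.11 had a 95% interval from -0.31 to 0.53, so that a difference of the size seen for *Atp2b1* lies within it (adjusted p = 0.766, limma with Benjamini-Hochberg adjustment). It was 0.13 without the library labelled KO b/c replicate 2.

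*Atp2b1*, the pump that most tissues express, was the most abundant of the 3 pump genes. It had 3919, 3399 and 3207 normalized counts in the libraries labelled KO b/c and 2751, 2817 and 2768 in WT hearts. Each library labelled KO b/c again lay above each WT library, and the WT libraries were nearly alike, with a coefficient of variation of 1.24% against 10.5% in KO b/c. The log2 fold change was 0.33 with a 95% interval of 0.15 to 0.51 (adjusted p = 0.0844 by limma and 0.00775 by DESeq2, both with Benjamini-Hochberg adjustment). It was 0.35 without the library labelled KO b/c replicate 2 and 0.25 without replicate 1.

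*Atp2b4*, the pump that in the heart is also known to bind neuronal nitric oxide synthase, followed at 1433, 1398 and 1217 normalized counts in the libraries labelled KO b/c. WT hearts had 1061, 1136 and 1160. The groups did not overlap, although the lowest KO b/c value was close to the highest WT value. The log2 fold change was 0.27 with a 95% interval of 0.08 to 0.46, and no test called it (adjusted p = 0.115 by limma, 0.109 by edgeR and 0.0596 by DESeq2, each with Benjamini-Hochberg adjustment). It was 0.24 without the library labelled KO b/c replicate 2.

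*Atp2b2*, the pump known from neurons and the hair cells of the inner ear, was the least abundant. It had 8.93, 33.1 and 20.4 normalized counts in the libraries labelled KO b/c and 11.3, 24.9 and 26.8 in WT hearts. Here replicate 1 was the lowest of either group, and the WT values lay within the KO b/c range. The log2 fold change of -0.10 had a 95% interval from -1.26 to 1.06, a range too wide to show a difference of the size of the other genes' at this depth (adjusted p = 0.932, limma with Benjamini-Hochberg adjustment). It was -0.50 without the library labelled KO b/c replicate 2, and its sign turned, to 0.38, without replicate 1.

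**Figure D1:**
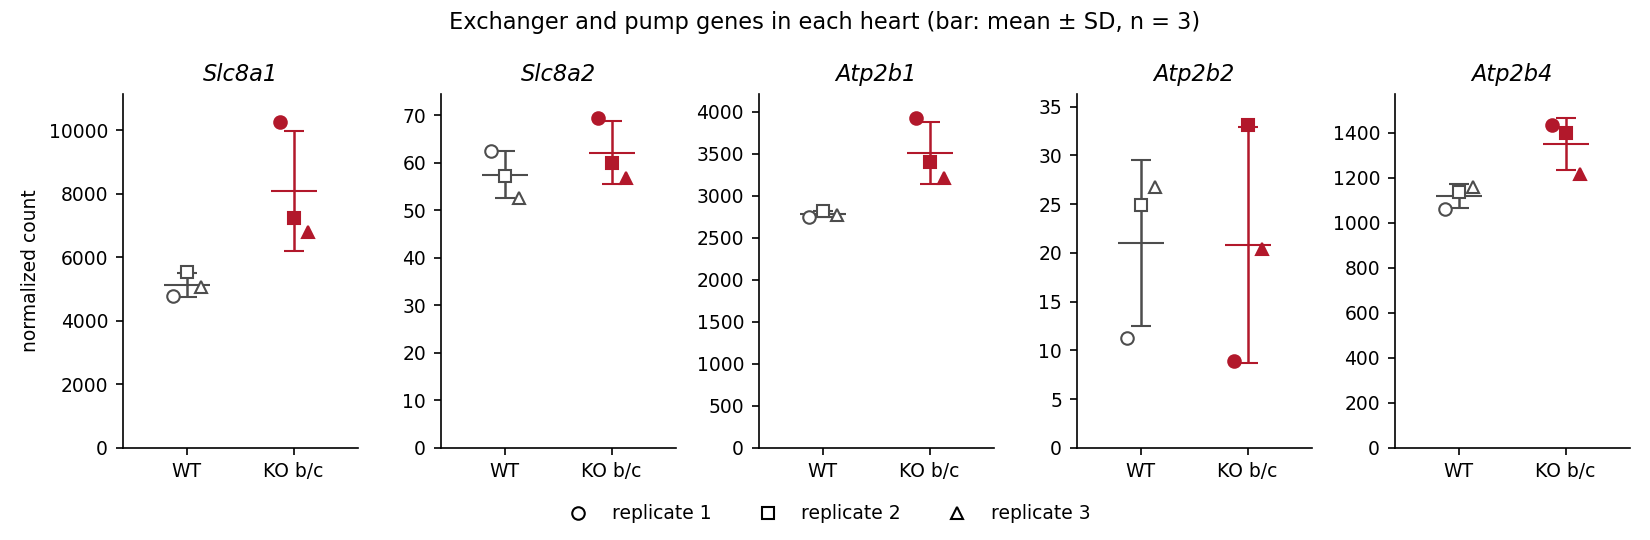
Normalized counts of the 5 genes in each heart, on axes that start at 0. Each symbol is 1 library (circle, square and triangle for replicates 1, 2 and 3; open for WT, filled for KO b/c), and the bars are the mean ± SD of 3. The KO b/c symbols lie above all WT symbols for *Slc8a1*, *Atp2b1* and *Atp2b4*, and the groups overlap for *Slc8a2* and *Atp2b2*.

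Over all 16016 genes tested, limma gave 0 genes (0%) with an adjusted p-value under 0.05, and therefore 0 of the 5. Without adjustment it gave 3764, and with adjustment edgeR gave 0 and DESeq2 gave 1587. At an unadjusted p-value under 0.05, 3 of the 5 were higher in KO b/c, against 13% of all genes, and 0 of the 5 were lower, against 10.5%. The values of 3 of the 5 were higher in KO b/c without overlap, against 15.6% of all genes. By DESeq2, *Slc8a1* and *Atp2b1* were called higher of the 3 genes for which it gave an adjusted p-value, against 8.22% of the genes with one. Without the library labelled KO b/c replicate 2, an alternative chosen after the data were seen, DESeq2 still called both, with adjusted p-values of 0.000869 and 0.0223. When each library was instead scaled to the same total, which lowered the median of all genes to -0.08, the log2 fold changes of *Slc8a1*, *Atp2b1* and *Atp2b4* were 0.56, 0.26 and 0.19.

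These genes have long transcripts, and in these libraries long transcripts were on average higher in KO b/c. The longest annotated transcripts measure 18464 nucleotides for *Slc8a1*, 7130 for *Atp2b1*, 11725 for *Atp2b4*, 8877 for *Atp2b2* and 5261 for *Slc8a2*. *Slc8a1* is longer than 99.9% of the genes with a known length. Among the 115 genes of at least 13000 nucleotides, the median log2 fold change was 0.29, and 6 had a larger one than *Slc8a1*. Among the 654 genes of 7000 to 8500 nucleotides, the median was 0.21, and 170 had a larger one than *Atp2b1*. *Atp2b4* stood close to the median of 0.29 of the 246 genes of 10000 to 13000 nucleotides, of which 136 had a larger one. After each library's dependence on transcript length and GC content was fitted and subtracted, the log2 fold change was 0.38 for *Slc8a1* (95% interval 0.08 to 0.68) and 0.16 for *Atp2b1* (-0.01 to 0.33). That of *Atp2b4* was 0.00 (-0.15 to 0.16). The adjusted p-values by limma with Benjamini-Hochberg adjustment were then 0.284, 0.363 and 0.997. The part of transcript length in the gene differences was not tested beyond this correction.

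**Figure D2:**
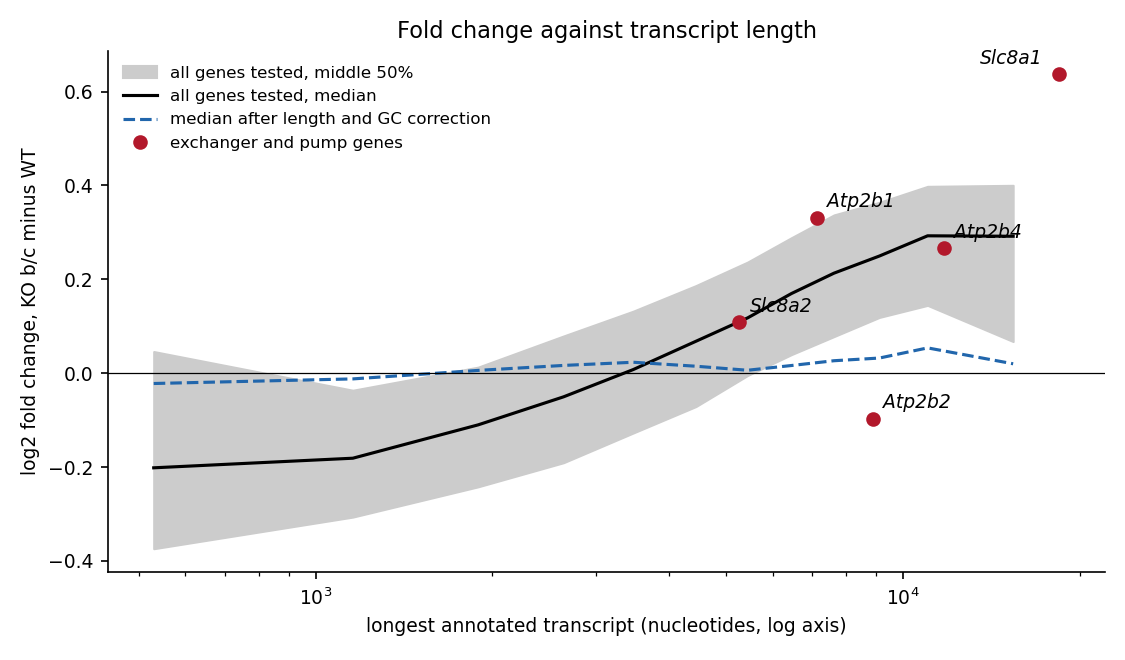
Log2 fold change (KO b/c minus WT) against the length of the longest annotated transcript in nucleotides, on a log axis. The line and band are the median and the middle 50% of all genes tested by length, the dashed line is the median of corrected values, and the points are the 5 genes. *Slc8a1* lies beyond the right end of the band and above its height there. The band ends at the median length of the genes of at least 13000 nucleotides. *Atp2b1* lies near the band's upper edge, *Atp2b4* and *Slc8a2* near the median, and *Atp2b2* below the band.

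**Figure D3:**
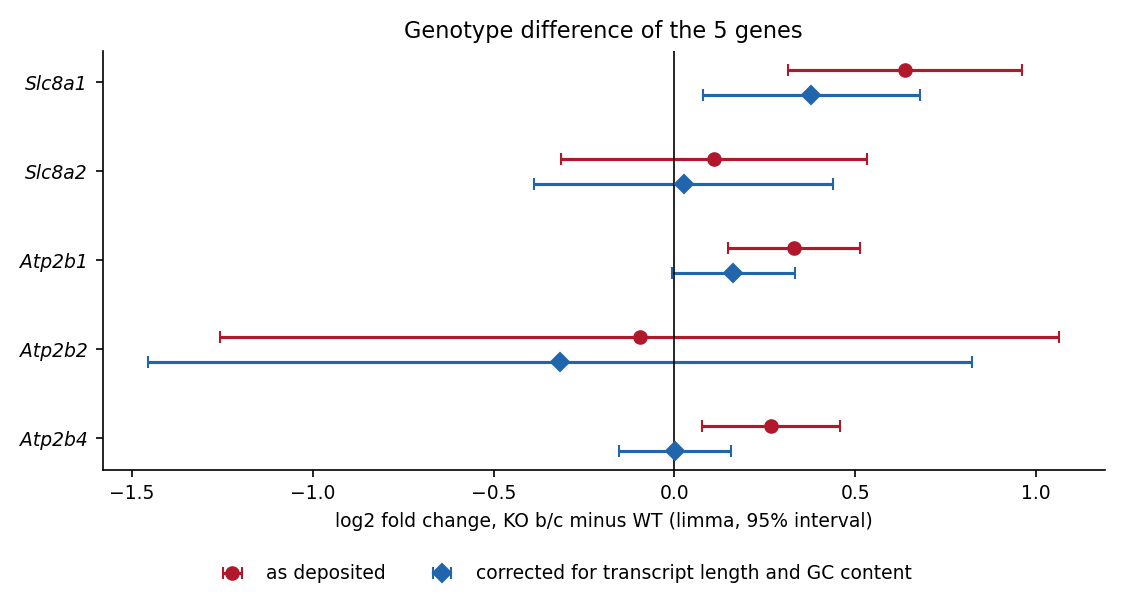
Log2 fold change of each gene with its 95% interval from limma, for the deposited values (circles) and once corrected for length and GC content (diamonds). With the correction the interval of *Slc8a1* stays above 0, that of *Atp2b1* reaches -0.01 and that of *Atp2b4* is centred at 0.00.

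Levels of different genes can be compared only per length. Per 1000 nucleotides of the longest transcript, WT hearts had 390 ± 4.84 normalized counts of *Atp2b1*, 278 ± 20.3 of *Slc8a1*, 95.5 ± 4.39 of *Atp2b4*, 10.9 ± 0.942 of *Slc8a2* and 2.37 ± 0.956 of *Atp2b2* (SD, n = 3). In KO b/c hearts, *Atp2b1* at 492 ± 51.7 and *Slc8a1* at 439 ± 102 per 1000 nucleotides did not differ beyond their spread. The order of these 2 depended on the length used. Per 1000 nucleotides of all annotated exons, *Slc8a1* came first, with 273 ± 19.9 against 183 ± 2.27 for *Atp2b1* in WT hearts. The other genes kept their places under both lengths. Within each family, 1 gene supplied most of the mRNA. *Slc8a1* made up 96.8% of the exchanger total per length, *Slc8a3* included, in KO b/c and 95.3% in WT hearts. Among the 3 pump genes, *Atp2b1* made up 80.7% in KO b/c and 79.9% in WT hearts, *Atp2b4* 18.9% and 19.6%, and *Atp2b2* 0.395% and 0.483%, by the longest transcript. By all exons, *Atp2b1* made up 67.3% and 66.3% and *Atp2b4* 32.2% and 33.1%. The summed normalized counts of the 3 pump genes were 4878 ± 461 in KO b/c and 3919 ± 83.5 in WT hearts (SD, n = 3).

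Ratios of genes within a library do not depend on the scaling between libraries. The ratio of *Slc8a1* to *Atp2b1* was 2.62, 2.13 and 2.12 in the libraries labelled KO b/c and 1.74, 1.97 and 1.83 in WT hearts, without overlap. The ratio of *Slc8a1* to *Atp2b4* was 7.15, 5.18 and 5.58 in KO b/c and 4.52, 4.87 and 4.35 in WT hearts, also without overlap. The exchanger gene was thus higher relative to each abundant pump gene, by a fold of 1.24 for *Atp2b1* and of 1.29 for *Atp2b4*. Both had p = 0.1 in the exact two-sided permutation test, and 0.175 with Benjamini-Hochberg adjustment over the 7 ratios compared. *Atp2b1* to *Atp2b4* ran from 2.43 to 2.73 in KO b/c and from 2.38 to 2.59 in WT hearts, so that the groups overlapped. The ratio of *Slc8a1* to *Slc8a2* was 118 to 146 in KO b/c and 75.6 to 95.2 in WT hearts. The ratio of *Slc8a1* to *Atp2a2*, the gene of the SERCA2 pump that competes with NCX1 for Ca2+, was 0.0112, 0.00963 and 0.00877 in KO b/c and 0.00883, 0.00888 and 0.00872 in WT hearts. The groups overlapped (exact permutation p = 0.3), and *Atp2a2* itself stood at 814026 ± 87717 normalized counts in KO b/c and 582360 ± 39925 in WT hearts (SD, n = 3). With the length and GC correction, the log2 difference of *Slc8a1* to *Atp2a2* was 0.04, and *Slc8a1* to *Atp2b1* had a log2 difference of 0.22 with overlap, whereas *Slc8a1* to *Atp2b4* had 0.38 without overlap. That of *Atp2b1* to *Atp2b4* went from 0.06 with overlap to 0.16 without overlap. *Atp2b2* to *Atp2b4* had a log2 difference of -0.36 before and -0.32 after the correction, with overlap in both, and its sign turned, to 0.16, without KO b/c replicate 1.

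**Figure D4:**
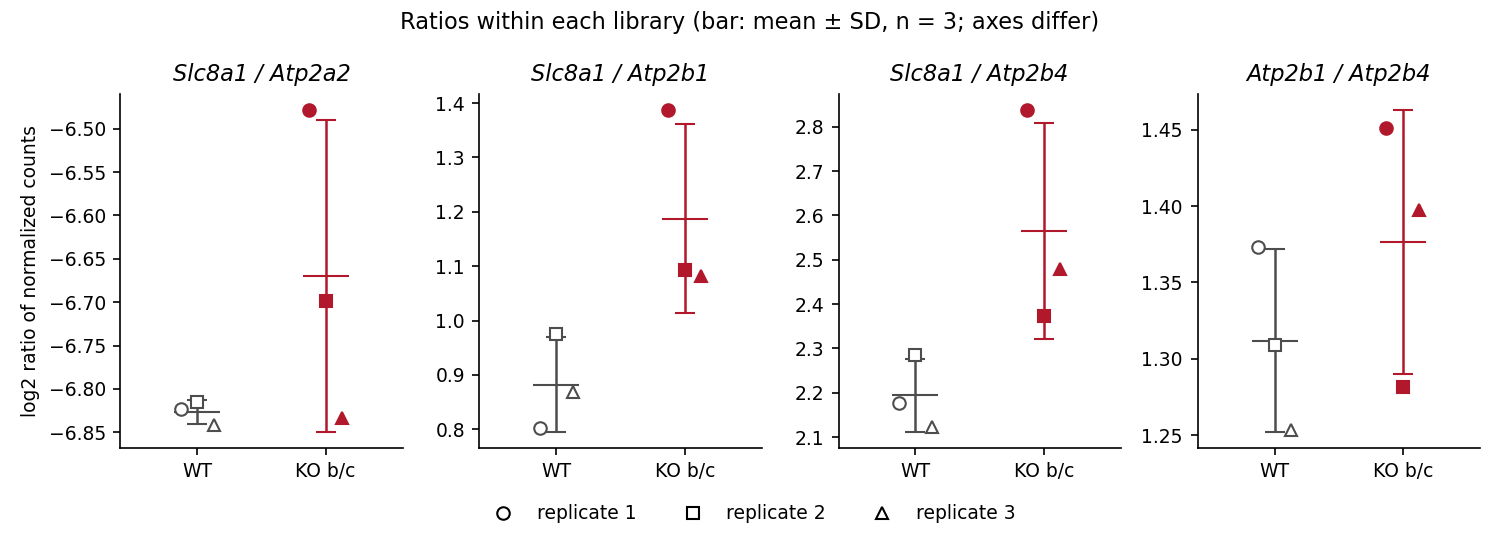
Log2 ratios of normalized counts within each library for 4 pairs of genes. Symbols are libraries (circle, square and triangle for replicates 1, 2 and 3), bars are the mean ± SD of 3, and the axes differ between panels and do not start at 0. The KO b/c symbols lie above the WT symbols for *Slc8a1* to *Atp2b1* and *Slc8a1* to *Atp2b4*, and overlap with them for *Slc8a1* to *Atp2a2* and *Atp2b1* to *Atp2b4*.

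The relatives of these genes were also examined. Of 8 other genes of the exchanger and pump families, 6 were tested, and *Atp2b3* and *Slc24a1* were not in the table. By limma, 0 of the 6 had an unadjusted p-value under 0.05 in either direction, against 13% of all genes higher and 10.5% lower. Groups were apart for 0 of the 6, against 2501 higher and 2332 lower of all 16016 genes tested. So few genes cannot be told from those shares. *Slc8a3*, the third NCX gene, had 6.95 to 15.1 normalized counts in KO b/c and 7.17 to 21.8 in WT hearts. *Slc8b1*, the mitochondrial Na+/Ca2+ exchanger NCLX, was the most abundant at 498 ± 36.0 in KO b/c and 527 ± 27.5 in WT hearts (SD, n = 3). The K+-dependent exchangers *Slc24a2*, *Slc24a3*, *Slc24a4* and *Slc24a5* had log2 fold changes of 0.34, 0.01, -0.09 and -0.15, and groups that overlapped. That of *Slc24a2* ran from 0.08 to 0.56 with each library left out in turn and was 0.11 with the length and GC correction. For *Slc8a3*, *Slc24a3*, *Slc24a4* and *Slc24a5* the sign turned under some alternatives.

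The partners and regulators of the transporters lay on both sides of 0. Of the 16 tested, 4 were higher and 2 lower at an unadjusted p-value under 0.05, against 13% and 10.5% of all genes, and the median log2 fold change was -0.02 against -0.0043 for all genes. *Ank2*, the ankyrin-B scaffold that holds NCX1 in the membrane together with the Na+ pump, had 6221 ± 1041 normalized counts in KO b/c and 4355 ± 222 in WT hearts (SD, n = 3), a log2 fold change of 0.50. That of *Sptbn1*, the spectrin that binds ankyrin, was 0.39. *Akap6*, an anchor for protein kinase A, had 0.43 with overlap, and *Prkca*, a protein kinase C that acts on the pumps, 0.30. DESeq2 called these 4, and limma none of the 16 after adjustment. In the other direction, *Cav3*, the caveolin of muscle membranes, had -0.22 with groups apart, and *Calm2*, a calmodulin gene, had -0.21 with overlap. *Calm3*, another calmodulin gene, had -0.06. *Fxyd1*, the phospholemman that inhibits NCX1 and the Na+ pump, had -0.16. The pump subunits *Nptn* and *Bsg* had 0.01 and -0.12. *Nos1*, the nitric oxide synthase that binds PMCA4, had 0.05 and was at 12.7 ± 3.05 normalized counts in WT hearts (SD, n = 3). *Rassf1* and *Slc9a3r2*, which encode further proteins that bind the pumps, had -0.30 and -0.07, and *Ywhae*, a 14-3-3 protein, had 0.15 with groups apart. The signs of *Fxyd1*, *Calm3*, *Nptn*, *Bsg*, *Nos1* and *Slc9a3r2* turned under some alternatives. *Ank2*, *Sptbn1*, *Akap6* and *Prkca* have transcripts of 8409 to 14847 nucleotides, while *Cav3* and *Calm2* have 1157 and 1205. With the length and GC correction, the log2 fold changes of *Ank2*, *Sptbn1*, *Akap6* and *Prkca* were 0.22, 0.15, 0.16 and 0.08. Those of *Cav3* and *Calm2* were both -0.04, and that of *Ywhae* was 0.25. At an unadjusted p-value under 0.05, 2 of the 16, *Ank2* and *Ywhae*, were then higher and 0 lower. Of all 15978 genes in that corrected fit, 1238 were higher and 1069 lower.

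The remaining Ca2+ and Na+ handling genes were compared in 4 lists. Of 16 genes of Ca2+ entry and release, 9 were higher at an unadjusted p-value under 0.05 and 0 lower, where 13% of all genes were higher and 10.5% lower, with a median log2 fold change of 0.25. The 4 with the largest differences were *Ryr2* (0.61), the release channel of the reticulum, *Jph1* (0.60), a junction protein, *Cacna1h* (0.50), a T-type Ca2+ channel, and *Cacna2d1* (0.47), a subunit of the L-type channel. Of 12 genes of Na+ entry and extrusion, 7 were higher and 0 lower, with a median of 0.22. Among them were *Slc4a7* (0.38), the cotransporter NBCn1, and *Atp1b1* (0.33), a subunit of the Na+ pump. For *Slc4a7*, each library labelled KO b/c was above each WT library. DESeq2 called it, with an adjusted p-value of 0.0492, and limma did not, with 0.136. Its log2 fold change was 0.49 without the library labelled KO b/c replicate 2 and 0.24 without replicate 1. With the length and GC correction it was 0.19. By quantitative PCR in female hearts, the study found no significant difference of NBCn1 mRNA between the genotypes. Of 10 genes of calcineurin signalling, which Ca2+ activates, 5 were higher and 0 lower, with a median of 0.14, and *Rcan2*, *Nfatc3*, *Ppp3ca* and *Nfatc1* had 0.37, 0.32, 0.25 and 0.24. Of 12 genes of uptake and storage in the reticulum, 4 were higher and 1 lower, with a median of 0.09. Here *Atp2a2* had 0.48. Its small activator DWORF, listed as *Gm34302*, had 0.75, and its small inhibitors sarcolipin (*Sln*) and myoregulin (*Mrln*) had -0.70 and -0.59, each of the 3 with overlap. By limma, 0 genes of these lists had an adjusted p-value under 0.05. DESeq2 called 6, 6, 2 and 2 higher in the order given and 1 lower in the last. Of all 11979 genes with an adjusted p-value, it called 8.22% higher and 602 lower. With the length and GC correction, the lists' medians were 0.14, 0.18, 0.17 and 0.20, against 0.01 for all genes. The numbers higher at an unadjusted p-value under 0.05 were then 5, 5, 3 and 2, with 1 lower in the Na+ list and 0 in the others. In that corrected fit, 1238 of all 15978 genes were higher and 1069 lower. Without the library labelled KO b/c replicate 2, *Ank2* had 0.56, *Ryr2* 0.64 and *Atp2a2* 0.53, and without replicate 1 they had 0.37, 0.45 and 0.39. The sign of *Sln* turned without KO b/c replicate 1. *Sln* is also among the atrial markers below. It had 677 normalized counts in KO b/c replicate 1 and 1380 in WT replicate 1, against 3712 to 6343 in the others. *Mrln* was scarce, with 23.1 to 31.0 in KO b/c and 30.9 to 48.1 in WT hearts.

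Sums of some cell type markers differed between the groups without overlap. The summed normalized counts of 10 cardiomyocyte markers were 3175310 to 3578780 in KO b/c and 2856580 to 2962330 in WT hearts, without overlap, and KO b/c replicate 1, where *Slc8a1* and *Atp2b1* were highest, had the highest sum. Of these 10 markers, 6 had a positive log2 fold change, with a median of 0.12. Without overlap, 4 were higher and 2 lower, where 2501 and 2332 of all 16016 genes tested were. *Myh6*, the main cardiac myosin, made up most of the difference in the sums, with means of 1159410 in KO b/c and 792350 in WT hearts, where the means of the sums were 3319940 and 2921110. Leukocyte markers, 9 of 10 tested, ran from 9743 to 11680 in KO b/c and from 12391 to 12927 in WT hearts. *Lyz2* made up most of this difference, with means of 5310.5 in KO b/c and 6490.6 in WT hearts. The means of the sums were 11009.5 and 12598.5. Of the 9, 3 had a positive log2 fold change. At an unadjusted p-value under 0.05, 2 were lower and 0 higher, against 10.5% and 13% of all genes. Smooth muscle and pericyte markers ran from 136150 to 155529 in KO b/c and from 117124 to 137426 in WT hearts, endothelial markers from 69972 to 76602 and 72324 to 74521, and fibroblast markers from 181448 to 197592 and 163353 to 182760. For the 2 genes known from neurons, 8 of 10 neuronal and glial markers could be tested. *Th*, which sympathetic neurons express, was not in the table, and the sum ran from 652 to 1073 in KO b/c and from 877 to 1201 in WT hearts. Erythroid markers, 9 of 10 tested, ran from 32205 to 138393 in KO b/c and from 55259 to 121130 in WT hearts. Atrial markers were at 21025 in KO b/c replicate 1 and 30298 in WT replicate 1, against 83629 to 123486 in the other 4 libraries. *Atp2b2* was lowest in the same 2 libraries. The most abundant gene of each list had log2 fold changes of 0.55 for *Myh6* of cardiomyocytes, -0.30 for *Lyz2* of leukocytes, 0.24 for *Des* of smooth muscle, which cardiomyocytes also express, -0.30 for *Fabp4* of endothelium, 0.28 for *Gsn* of fibroblasts and -0.46 for *Uchl1* of neurons. *Hbb-bs* of red cells, whose reads may be shared with near-identical globin genes, had -0.71, and *Nppa* of the atria had -0.30, a sign that turned without KO b/c replicate 1. By limma, 0 of these 8 genes passed the adjustment. A single gene did not stand for its list. At an unadjusted p-value under 0.05, 3 of 10 endothelial markers were higher and 2 lower, with a median of 0.10. Of 10 fibroblast markers, 2 were higher and 3 lower, with a median of 0.00249. At the same threshold, 13% of all genes were higher and 10.5% lower. The part of these cell types in the gene differences was not tested.

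The genes with the most similar profiles over the 6 libraries were found by the root mean square difference of their log2 deviations from the gene mean, among 11921 genes whose mean reached 100 normalized counts. For *Slc8a1*, they were *Ryr2*, *Jph1* and *Abcc9*, at 0.0397, 0.0472 and 0.0532, where the deviations of *Slc8a1* itself have a root mean square of 0.373. *Abcc9* encodes a subunit of the ATP-sensitive K+ channel. *Atp2b1* was closest to *Notch1*, a cell surface receptor, *Gphn*, which encodes gephyrin, and *Hcfc1*, a transcription cofactor, at 0.0192, 0.0206 and 0.0228. *Atp2b4* was closest to *Armcx4*, *Gigyf2*, a regulator of translation, and *Pum2*, an RNA-binding protein, at 0.0182, 0.0209 and 0.0231. The deviations of *Atp2b1* have a root mean square of 0.187. This measure also compares the size of the deviations, so different nearest genes for *Slc8a1* and *Atp2b1* do not show different patterns. Both genes ranked the 6 libraries in the same order. *Slc8a2* was closest to *Qsox1*, *Dusp27* and *Mark4*, at 0.0204, 0.0237 and 0.0249. *Atp2b2* was closest to *Gcnt1*, *Myl1*, a myosin light chain, and *Mbp*, a myelin protein, at 0.157, 0.200 and 0.210, on deviations of 0.644. All genes of a library share its depth and RNA quality, so these likenesses over 6 libraries are descriptions.

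**Figure D5:**
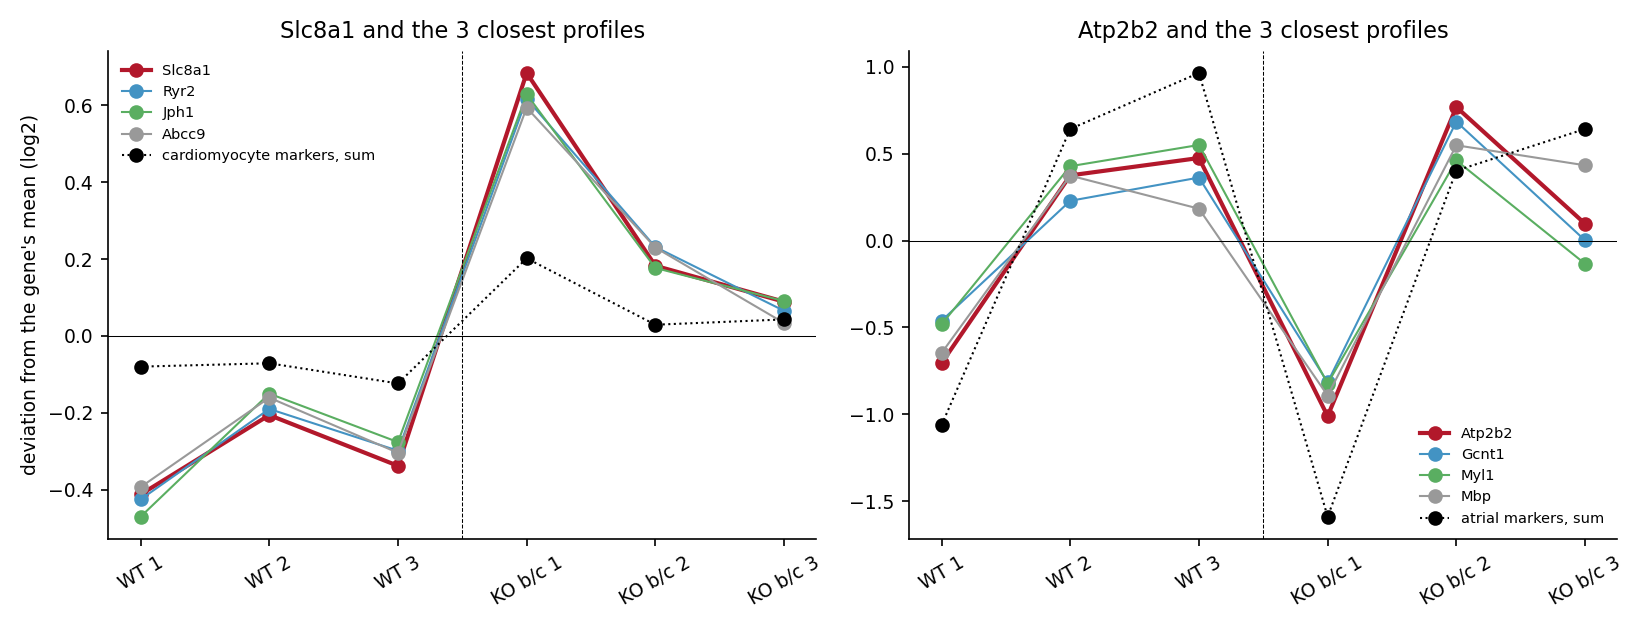
Deviation of each gene from its mean over the 6 libraries (log2) for *Slc8a1* and *Atp2b2* with the 3 genes closest to each, and, dotted, for the summed cardiomyocyte and atrial markers. The lines connect libraries only to guide the eye. *Slc8a1*, *Ryr2*, *Jph1* and *Abcc9* are highest in KO b/c replicate 1 and lowest in WT replicate 1, and *Atp2b2* is lowest in KO b/c replicate 1 and WT replicate 1, as are the atrial markers.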

How the data were processed

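Libraries from 3 hearts labelled KO b/c and 3 labelled WT had been sequenced on an Illumina HiSeq in paired mode. The submitters' processing notes name Trimmomatic 0.36, STAR 2.5.2b, featureCounts of Subread 1.5.2, DESeq2 and the build GRCm38; the annotation release and the strand setting are not given in the sources used here. The authors deposited a normalized signal per gene, namely counts scaled by a factor per library. When the value of 1 read was taken as the unit, 100% of each library's values were whole numbers (tolerance 0.01 reads), so reads could be recovered for the count tests. Genes were annotated with GENCODE M21 (GRCm38), chosen here, which named 15985 and gave transcript lengths for 15980 of them. The windows printed were placed by RefSeq starts.

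Genotypes were compared with limma 3.58.1 in R 4.3.3 using a variance trend on log2(normalized count + 1). The fit covered the 16016 genes whose mean reached 10. Tests were two-sided, p-values were adjusted by Benjamini-Hochberg, and the threshold was 0.05. Fold changes on this scale are too small for genes of low count. The length and GC correction subtracts splines of 5 degrees of freedom each from every library's deviations from the gene means. edgeR 4.0.16 and DESeq2 1.42.0 were run on the recovered reads as alternatives. Other alternatives were the pseudocount, the filter, the scaling between libraries, the variance trend, the replicate block and leaving out each library. Scripts were tested on simulated data with changes larger than those of the 5 genes. That test does not show whether differences of their size would be found. Named genes are the 5 genes, *Slc4a4*, every tested relative and partner, the 4 largest absolute log2 fold changes of each other pathway list, the most abundant gene of each marker list and the 3 closest profiles of each gene. Some genes that meet this rule are not reported here. The genes and lists were chosen with earlier results of these data known.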

Additional observations from a re-analysis of the deposited data

How the results depend on the processing

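The signs of the log2 fold changes of *Slc8a1*, *Slc8a2*, *Atp2b1* and *Atp2b4* were the same under every alternative run. DESeq2 moved the calls: it gave 1587 genes, 2 of the 5 and 21 of the pathway lists, with log2 fold changes of 0.66 for *Slc8a1* and 0.34 for *Atp2b1*, and 1195, 2, 19, 0.73 and 0.36 without the library labelled KO b/c replicate 2, an alternative chosen after the data were seen. With all libraries, limma gave 0 in each of these counts, and edgeR gave 0 genes, and 3837 before adjustment at the same threshold; the cause was not tested. With each library left out in turn, limma called 0 to 3 genes, of which 3 were found without the library labelled KO b/c replicate 2. The log2 fold change then ranged from 0.45 to 0.75 for *Slc8a1*, 0.03 to 0.17 for *Slc8a2*, 0.25 to 0.39 for *Atp2b1*, -0.50 to 0.38 for *Atp2b2* and 0.22 to 0.34 for *Atp2b4*. Scaling changed the balance of genes at an unadjusted p-value under 0.05 from 2083 higher and 1681 lower to 1259 and 2539 with equal totals.

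The replicate numbers do not mark shared animals, and same-numbered libraries deviated together with correlations of 0.23, 0.07 and -0.03 across genes. With the replicate block, 0 genes passed, and the adjusted p-value of *Slc8a1* was 0.105; the block changed no call.

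Signs turned as follows. Quantile normalization gave *Atp2b2* 0.0121, *Slc24a4* 0.00215 and *Nptn* -0.0452. Equal totals gave *Slc24a3* -0.0607, *Nptn* -0.0599, *Nos1* -0.0136 and *Mbp* -0.0124. The length and GC correction, with and without the replicate block, gave *Slc24a3* -0.00642, *Fxyd1* 0.0426, *Calm3* 0.0444, *Nptn* -0.029, *Bsg* 0.0403, *Nos1* -0.18, *Slc9a3r2* 0.0461 and *Mbp* -0.0242, and the length correction alone gave *Slc24a3* -0.0096, *Fxyd1* 0.026, *Calm3* 0.0279, *Nptn* -0.0426, *Bsg* 0.0253, *Nos1* -0.18, *Slc9a3r2* 0.029 and *Mbp* -0.0132. DESeq2 without the library labelled KO b/c replicate 2 gave *Nos1* -0.33 and *Mbp* -0.12. Leaving out each library gave ranges of *Slc8a3* -0.53 to 0.21, *Slc24a4* -0.34 to 0.0812, *Slc24a5* -0.29 to 0.0802, *Nptn* -0.0466 to 0.0916, *Sln* -1.38 to 0.15, *Nppa* -1.08 to 0.52, *Gcnt1* -0.45 to 0.30, *Nos1* -0.39 to 0.55, *Mbp* -0.25 to 0.52, *Slc24a3* -0.14 to 0.0935, *Calm3* -0.13 to 0.0616, *Slc9a3r2* -0.16 to 0.0224 and the log2 difference of *Atp2b2* to *Atp2b4* -0.74 to 0.16. *Atp2b2* and *Slc8a2* rest on 9 to 70 reads per library, too few to show differences of the size seen for *Atp2b1*.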
